A study of Drosophila melanogaster with 5 samples.

Results

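Cytosolic ribosomal protein genes encode the proteins of the ribosomes that translate nuclear mRNAs, as distinct from the mitochondrial ribosome. They were chosen by name: a gene was taken when its symbol in the deposited table began with RpL, RpS or RpLP followed by a number. This gave 91 of 17494 genes in the counts. Of these, 77 were main copies (47 of the large subunit and 30 of the small subunit), 2 were second copies of another member and 12 were low-count paralogues, that is copies whose mean level was under 10% of the main copy of their family. RNA was sequenced from indirect flight muscle (dorsolongitudinal muscle) that had been dissected at 48 h APF (hours after puparium formation) from Drosophila melanogaster reared at 25 °C. Every pupa carried the muscle driver Mef2-GAL4. The WT group (n = 3 libraries, replicates 1, 2 and 3) had the driver alone, and the M1BP RNAi group (n = 2, replicates 2 and 3) also expressed UAS-M1BP RNAi, per the study's methods the weaker of its 2 RNAi lines. The study calls the driver muscle-specific, and states that it can also be active in some neurons and that Mef2 is expressed in fat body too. It reports that M1BP knockdown by a neuronal or a fat body driver left sarcomeres and mitochondria of flight muscle without a phenotype. Another driver, Him-GAL4, gave the mitochondrial defects as well. Each library pooled the muscles of 6 to 8 pupae. The labels gave neither sex nor batch, and nothing in them said whether the libraries of a group came from separate crosses, so p-values measure the spread between these 5 libraries.

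A ribosome holds each of its proteins once, except for the acidic stalk proteins, and the genes are therefore transcribed at high and similar levels in growing tissue. In flies, loss of 1 copy of many of these genes gives the Minute phenotype of slow growth and short bristles. M1BP is a zinc finger protein that binds the core promoter element Motif 1 and, with the TBP-related factor TRF2, acts at ribosomal protein gene promoters in cultured fly cells. The comparison asks how the RNA of these genes stands in muscle with less M1BP.

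The libraries held 41676901 to 57514444 counts. M1BP (FBgn0037621, chromosome 3R, 8729790 to 8731698 in the dm6 build, minus strand) had 666, 673 and 642 normalised counts in WT against 410 and 456 in M1BP RNAi. The groups did not overlap, and M1BP was lower by 34.5% (log2 fold change -0.61, SE 0.136, DESeq2 adjusted p 1.04e-04). It stayed lower in each alternative, but the call was lost in edgeR (adjusted p 0.0243), with counts scaled by library totals (-0.35, DESeq2 adjusted p 0.0951), with totals without mitochondrial genome genes (adjusted p 0.0256), with the replicate number as a block (0.443), with roX1 as a covariate (0.23) and when any 1 library was left out (0.0135 to 0.181). All 10 flight muscle markers, among them Mhc and Act88F, were detected and 0 were called by DESeq2 or edgeR, while 3 had an unadjusted DESeq2 p under 0.05, as did 35.7% of all genes tested. Of these markers 9 were below 0 (6 with library totals). RNA of other tissues was also present. Of 20 testis markers, 19 were highest in M1BP RNAi replicate 2, and 4 of the 14 tested were called higher (3.78% of all genes tested). The 6 fat body markers summed to 14950, 12609 and 6973 normalised counts in WT against 16195 and 15556 in M1BP RNAi, so they were lowest in WT replicate 3. The 4 neuron markers summed to 2395, 2058 and 2324 against 1880 and 2034, mostly from elav (-0.08). The other 3 were lower without passing the test (nSyb -0.94, brp -1.19 and Syt1 -0.91, log2), and 0 of 4 were called by either tool (1 at an unadjusted DESeq2 p under 0.05). Of the fat body markers, the 3 tested haemocyte and the 3 tested germline markers, 0 were called by either tool or had an unadjusted DESeq2 p under 0.05. Mitochondrial genome RNA took 18.1% to 20.4% of counts in WT but 10.8% and 14.6% in M1BP RNAi. In bulk muscle, fewer cells of a type and less RNA per cell cannot be told apart in any value that follows.

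Main copies of ribosomal protein genes stood lower in M1BP-depleted muscle. All 77 had a log2 fold change below 0 (69 when libraries were scaled by their totals), with a median of -0.39 against 0.02 over all 11282 genes tested, and 14 passed the test: RpL3, RpL10Ab, RpL14, RpL15, RpL22, RpL29, RpL30 and RpL31 of the large subunit and RpS4, RpS6, RpS9, RpS15, RpS15Aa and RpS27A of the small subunit. The DESeq2 Wald test was used, and genes that reached an adjusted p of 0.001 or less and differed 1.5-fold or more were called. Of all genes tested, 2.98% were called lower and 3.78% higher by that rule. Of the 91 members, 86 were tested, 14 were called lower, 1 was called higher and 71 were not called. In 72 of the 77 main copies both M1BP RNAi libraries lay below all 3 WT libraries, an order found in 21.9% of all genes tested. Without the fold minimum, 24 main copies passed, against 3.88% of all genes.

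Relative to the WT mean of each gene, the median main copy stood at -0.10, -0.08 and 0.16 (log2) in WT replicates 1, 2 and 3 and at -0.40 and -0.37 in M1BP RNAi replicates 2 and 3. The 2 M1BP RNAi libraries therefore gave nearly the same value, while WT replicate 3 stood above the other WT libraries. It was the highest of the 5 libraries for 77 of 77 main copies. This is also the library with the least fat body RNA, and the part of that RNA in the result was not tested. The 10 flight muscle markers, not counted among the members, had a median log2 fold change of -0.37 (-0.10 with library totals), close to that of the main copies. Relative to the WT mean their medians were -0.01, -0.20 and 0.20 in WT and -0.52 and -0.17 in M1BP RNAi, so they differed more between libraries of a group. In 2 of 10 both M1BP RNAi libraries lay below all WT libraries, near the 21.9% of all genes tested. The part of the level of muscle RNA in the main-copy values was not tested. Without WT replicate 3 the medians of the main copies were -0.32 for the large and -0.26 for the small subunit, 9 genes were called lower, and 75 of 77 main copies stayed below 0. Without M1BP RNAi replicate 2 only RpL3, RpL22, RpS4 and RpS9 were called, and without M1BP RNAi replicate 3 there were 9 calls.

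**Figure D1:**
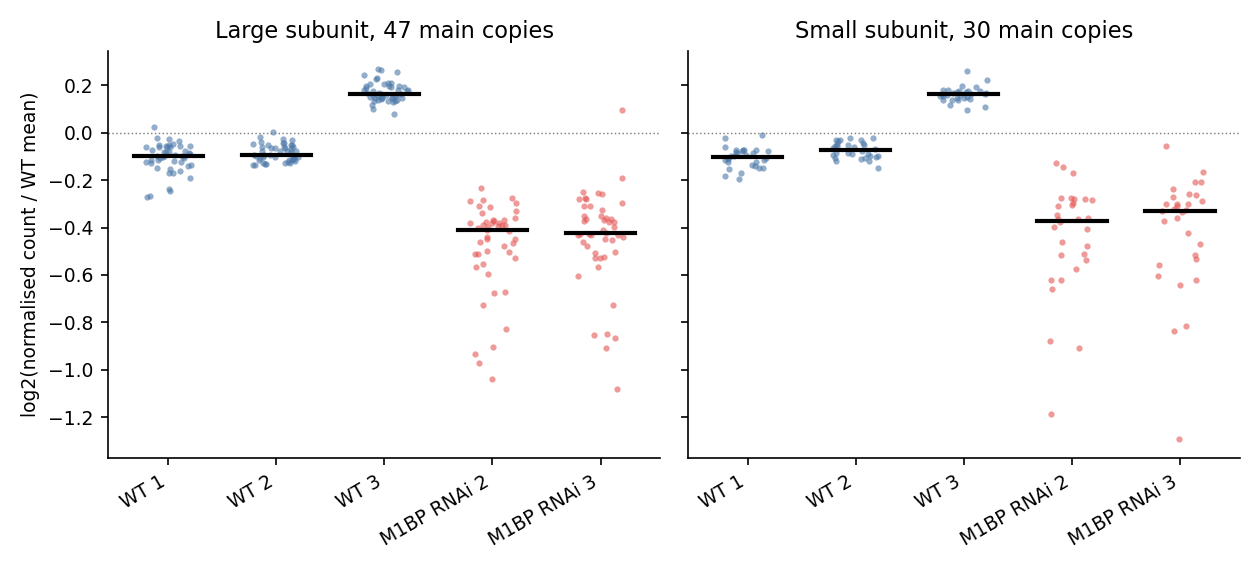
Each point is a main-copy ribosomal protein gene in 1 library, as the log2 ratio of its normalised count to the mean of the 3 WT libraries (y axis), with large subunit genes on the left and small subunit genes on the right, and the black bar is the median. Large subunit medians were -0.10, -0.09 and 0.16 in WT and -0.41 and -0.42 in M1BP RNAi, and a tail of genes below -0.6 is seen only in the M1BP RNAi libraries.

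The size of the shift depended on the scaling. With library totals in place of the DESeq2 size factors, a choice made after the data were seen, the median of all tested genes moved by 0.27 to 0.29. The main copies then had a median of -0.12, 69 of 77 were below 0, the exceptions being RpS13, RpS14a, RpS30, RpLP2, RpS21, RpS24, RpS29 and RpL38, and 6 were called lower (RpL10Ab, RpL22, RpL29, RpL30, RpS4 and RpS9). Relative to the median of all genes, the main copies stood at -0.41 with either scaling. Other size factors move all genes by nearly the same amount, so this agreement was fixed in advance and is no check of the scaling. As a share of all counts, the 91 genes took 7.65%, 8.02% and 8.30% in WT and 7.30% and 6.85% in M1BP RNAi. With mitochondrial genome RNA left out of the total, the shares were 9.35%, 10.1% and 10.3% against 8.18% and 8.03%. In both forms the M1BP RNAi shares lay below all WT shares.

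In edgeR's quasi-likelihood test 0 members passed the same rule. Only 8 of the 9833 genes tested there did, 4 of them (0.0407%) lower. At an edgeR adjusted p of at most 0.05, 16 of the 84 members in that fit were lower, all of them main copies, against 4.5% of all genes. At an unadjusted p under 0.05 edgeR gave 56 members as lower, against 14% of all genes.

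Genes of both subunits stood lower. The median log2 fold change was -0.41 over the 47 large subunit main copies, with 8 called lower and 45 not overlapping between the groups. It was -0.34 over the 30 small subunit main copies, with 6 called and 27 not overlapping. Of all genes tested, 2.98% were called lower, and in 21.9% both M1BP RNAi libraries lay below all WT libraries. Summed per length, as TPM (counts per exon base, brought to the same sum in each library), large subunit RNA was 1.81, 1.82 and 1.85 times small subunit RNA in WT. In M1BP RNAi the ratio was 1.79 and 1.80. The M1BP RNAi ratios were thus just under the WT ratios. The spread among genes was wider than the gap between the subunits, running from -1.24 (RpS4) to -0.09 (RpS29) in the small and from -1.06 (RpL22) to -0.06 (RpL38) in the large subunit.

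Among main copies RpS4, a protein of the small subunit, changed most. RpS4 (FBgn0011284, 3L, 13041756 to 13044234, plus strand) had 78692, 73695 and 85573 normalised counts in WT against 34832 and 32394 in M1BP RNAi. Both M1BP RNAi libraries held less than the lowest WT library by a wide margin. The mean went from 79320 ± 5964 (SD, n = 3) to 33613 ± 1723 (SD, n = 2), a decrease of 57.6% (log2 fold change -1.24, SE 0.103, DESeq2 adjusted p 2.96e-31, edgeR adjusted p 0.00503). RpS9, which sits near the mRNA entry of the small subunit, had 42632, 42283 and 49693 in WT and 23908 and 25164 in M1BP RNAi. Its groups were also well apart (log2 fold change -0.87, SE 0.113, DESeq2 adjusted p 5.87e-13). RpS4, RpS9 and RpL22 were called in 15 of 15 DESeq2 alternatives, which no other member was.

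Among small subunit genes, RpS27A is made as a fusion of ubiquitin with a ribosomal protein. It had 59101, 59898 and 73306 normalised counts in WT against 34860 and 36483 in M1BP RNAi, and it fell in both M1BP RNAi libraries (log2 fold change -0.85, SE 0.135, DESeq2 adjusted p 1.22e-08). RpL40, the other ubiquitin fusion, had 33257, 35236 and 42184 against 30203 and 30821 and did not pass (-0.27, adjusted p 0.129). The difference between these fusion genes was not tested. RpS6, the substrate of S6 kinase in TOR signalling, had 72197, 71501 and 84603 in WT and 49425 and 48752 in M1BP RNAi (-0.63, DESeq2 adjusted p 4.75e-07). Its groups did not overlap. RpS15, next to the decoding site, had 46171, 47147 and 56599 against 31658 and 32852 (-0.63, DESeq2 adjusted p 1.49e-05). RpS15Aa had 29731, 32299 and 37157 against 21508 and 21510 (-0.62, DESeq2 adjusted p 1.98e-05). These 3 genes, with RpL14 and RpL31, were the genes called lower that were nearest the fold minimum, and each was called in 9 of 15 DESeq2 alternatives.

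In the large subunit RpL22 fell furthest. RpL22 (FBgn0015288, X, 762560 to 765130, minus strand) had 71104, 67668 and 82259 normalised counts in WT against 35830 and 34873 in M1BP RNAi. Both M1BP RNAi libraries were well below the lowest WT library, and close to each other (log2 fold change -1.06, SE 0.118, DESeq2 adjusted p 2.98e-17). Its exons share 377 bases with lncRNA:CR42491, whose mean was 28338 normalised counts, and the strand setting of the counting was not stated, so reads there may belong to either gene.

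RpL3, which lies at the peptidyl transferase centre, was the most counted gene of the 14. It had 111995, 106157 and 130259 normalised counts in WT against 65440 and 64251 in M1BP RNAi, a decrease of 44.2% (log2 fold change -0.84, SE 0.121, DESeq2 adjusted p 1.98e-10). RpL29, a short and basic large subunit protein, had 20575, 21632 and 28183 against 11961 and 12492, with the widest error of the 14 (-0.94, SE 0.173, adjusted p 1.29e-06). The groups did not overlap for either gene. RpL30 had 27829, 28690 and 34628 against 15898 and 16654 (-0.90, DESeq2 adjusted p 7.22e-10). RpL10Ab, of the flexible stalk opposite the acidic proteins, had 49860, 48504 and 60582 against 28294 and 29407 (-0.88, adjusted p 3.00e-09). RpL15 had 50056, 50817 and 58182 against 32075 and 32036 (-0.73, adjusted p 8.21e-11). In each of these the M1BP RNAi libraries were close together and WT replicate 3 was highest. RpL31, at the exit of the peptide tunnel, had 41805, 43398 and 49790 against 28276 and 29637 (-0.64, DESeq2 adjusted p 4.54e-07). RpL14 had 46917, 47676 and 56305 against 31484 and 33952 (-0.62, DESeq2 adjusted p 9.38e-06).

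**Figure D2:**
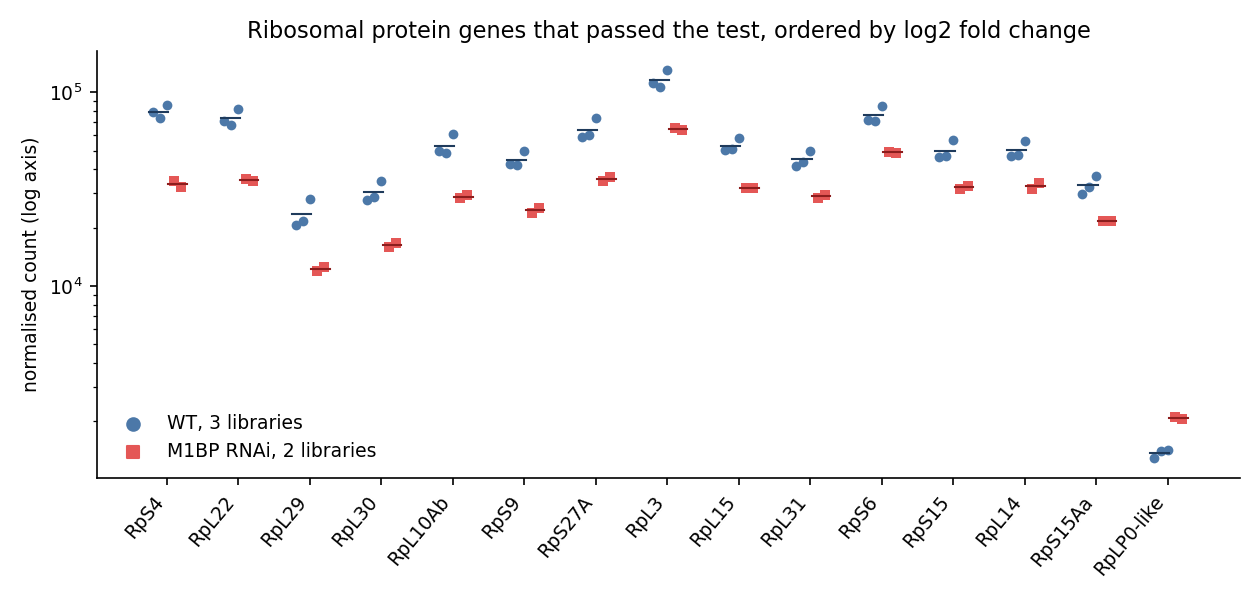
Normalised counts (log axis) of the 15 members that passed the test, ordered by log2 fold change, with WT libraries as blue circles, M1BP RNAi libraries as red squares and group means as short lines. The groups do not overlap in any of the 15 genes. RpS4 fell from a mean of 79320 to 33613, and RpLP0-like is the gene that rose, from 1366 to 2075.

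The fold minimum divided a continuous series. Just inside were RpL14 and RpS15Aa at -0.62, and just outside were RpS28b at -0.57 (adjusted p 2.30e-04) and RpL9 at -0.55 (DESeq2 adjusted p 1.62e-05). RpS28b had 32252, 35730 and 40845 normalised counts in WT against 24320 and 24659 in M1BP RNAi. RpL9 had 52040, 50636 and 60093 against 36593 and 37643. Neither gene's groups overlapped.

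At the other end were 5 main copies whose groups overlapped: RpL38, RpS29, RpS24, RpS21 and RpL41. RpL38 had 17654, 20132 and 24576 normalised counts in WT against 17660 and 22202 in M1BP RNAi (-0.06, SE 0.195, DESeq2 adjusted p 0.859). RpS29 had 41785, 44943 and 52134 against 42400 and 44565 (-0.09, DESeq2 adjusted p 0.658). Both sit inside the WT range, and both were above 0 with library totals (0.21 and 0.18) and without WT replicate 3 (0.08 and 0.0016). RpS24 (-0.15), RpS21 (-0.19) and RpL41 (-0.31) also did not pass. RpL41 is the shortest ribosomal protein known and had the most RNA per length of all members. It had 68727, 81181 and 98881 normalised counts in WT against 64179 and 69655 in M1BP RNAi, so its WT libraries differed among themselves by more than the group means did.

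The acidic stalk recruits translation factors and is built of RpLP0, RpLP1 and RpLP2. RpLP1 had 63160, 63617 and 79366 normalised counts in WT against 47631 and 47630 in M1BP RNAi (-0.53, DESeq2 adjusted p 0.00169). RpLP0 had 108344, 105165 and 124961 against 86725 and 88543 (-0.36, adjusted p 0.00713). RpLP2 had 56367, 60670 and 73131 against 51553 and 55478 (-0.24, DESeq2 adjusted p 0.222). In each stalk gene both M1BP RNAi libraries lay below all WT libraries, but the genes were not called, and RpLP2 was at 0.03 with library totals.

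Levels per length were compared within WT. Main copies had a median of 1830 TPM and ran from 647 (RpL38) to 8167 (RpL41), a 12.6-fold range, and 71 of 77 lay within 2-fold of the median. The 5 genes with the most RNA per length were RpL41 (8167 TPM), RpS27A (3417), RpLP2 (3311), RpL23A (3175) and RpL23 (3040). Of these only RpS27A was called, and RpL23A and RpL23 had log2 fold changes of -0.43 and -0.53 (DESeq2 adjusted p 2.55e-04 and 0.00275). Genes of high and low level had like fold changes: main copies below the median TPM over all libraries had a median log2 fold change of -0.39 with 8 of 38 called, and the others -0.39 with 6 of 39. Short genes, with under 944 exon bases, had a median of -0.37 with 6 of 38 called, and the rest -0.41 with 8 of 39. The share called lower among all genes tested was 2.98%.

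By chromosome arm, 5 of 13 main copies on 3L were called lower (median -0.46), 3 of 13 on X (-0.41), 3 of 17 on 2R (-0.37), 2 of 17 on 2L (-0.37), 1 of 16 on 3R (-0.37) and 0 of 1 on chromosome 4, where RpS3A stood at -0.28. The medians of the arms differ little beside the spread of genes within an arm. Many ribosomal protein genes host small nucleolar RNAs, which guide modification of ribosomal RNA, in their introns. The 27 main copies with such genes inside them (68 small nucleolar RNAs in all) had a median of -0.45 and 9 calls. The 50 without had -0.37 and 5 calls, and the difference was not tested. Beside these counts and those by arm, 2.98% of all genes tested were called lower. The exons of 27 main copies share bases with another annotated gene, by 3 (RpL29) to 512 bases (RpS9, with the antisense gene asRNA:CR45874, whose mean was 52.7 normalised counts). RpL27 shares 158 bases with CG5028, whose mean of 75535 normalised counts exceeds its own, so its values (-0.52, DESeq2 adjusted p 0.00665) are uncertain.

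The 4 low-count paralogues with a mean over 100 counts did not share the lower level of the main copies. Of the 12, 7 were tested, each with a log2 fold change above 0, and RpLP0-like passed the test and rose. RpL10Aa and RpL22-like reached enough counts for a test only through M1BP RNAi, mostly replicate 2. Their sign was therefore largely fixed by the count filter and is no support for a rise. The other 5 had too few counts for a test. The 13 families hold 27 members. In 2 families the second copy is well expressed: RpS14b at 34.4% of RpS14a and RpL34a at 16.6% of RpL34b by mean normalised count. RpS14b had 6734, 7029 and 7999 normalised counts in WT against 5540 and 6053 in M1BP RNAi, and RpS14a 19443, 20295 and 22516 against 17137 and 17609. RpS14a (-0.26) and RpS14b (-0.32) are near-identical neighbours on X. Reads that fit both equally would not be uniquely aligned, so the levels of both copies and their ratio are uncertain. Neither gene passed (DESeq2 adjusted p 0.0414 and 0.0347), with RpS14a at 0.01 under library totals. RpL34a had 6026, 6248 and 7840 against 5928 and 5891, and RpL34b 40348, 38187 and 47385 against 33165 and 33843. RpL34b (-0.33) and RpL34a (-0.18) did not overlap between groups either, and neither passed (DESeq2 adjusted p 0.0444 and 0.417), with RpL34a at 0.09 under library totals. Of the main copies with a low-count paralogue, RpL10Ab, RpL22 and RpS15Aa were called lower, against 2.98% of all genes tested. RpS28b (-0.57), RpS19a (-0.54), RpS10b (-0.51), RpS5a (-0.32) and RpL37a (-0.27) were not called. Nor were RpLP0 (-0.36), RpL24 (-0.37) and RpL7 (-0.37).

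**Figure D3:**
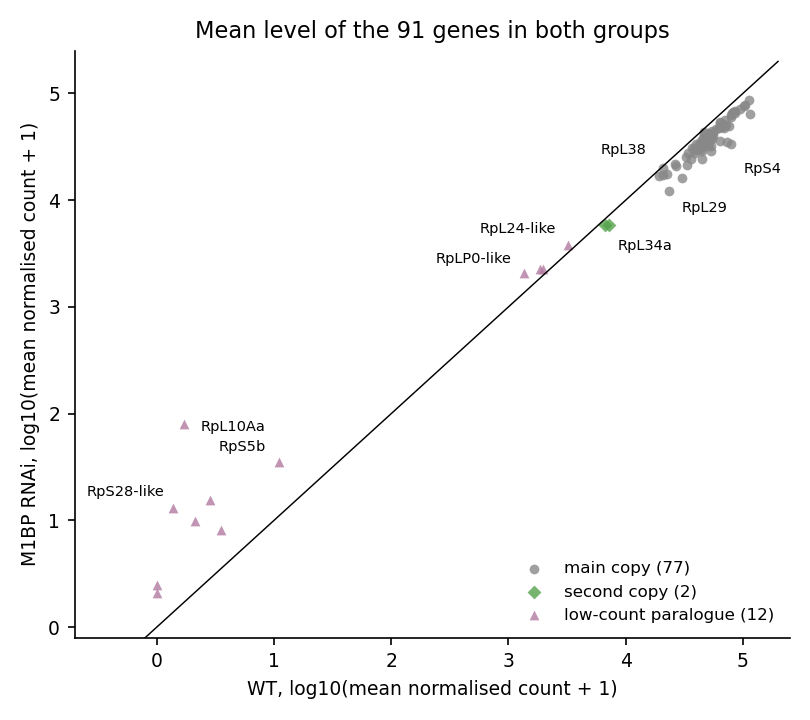
Mean normalised count in WT (x axis) and M1BP RNAi (y axis) of the 91 genes, both as log10 of the mean plus 1, with the line of equal level. Main copies lie just under the line, the 2 second copies close to it, 4 low-count paralogues of more counts on or over it, and 8 of under 100 counts well over it.

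The low-count paralogues with a mean over 100 counts were RpLP0-like, RpL24-like, RpL7-like and RpS15Ab. The first 3 resemble ribosome assembly factors of yeast (Mrt4, Rlp24 and Rlp7), which hold the place of a ribosomal protein on the maturing subunit. RpLP0-like (FBgn0033485, 2R, 10098518 to 10099590, minus strand) had 1281, 1396 and 1420 normalised counts in WT against 2099 and 2051 in M1BP RNAi. It rose (log2 fold change 0.60, SE 0.101, DESeq2 adjusted p 5.87e-08, edgeR adjusted p 0.0133), just over the fold minimum, and was called in 9 of 15 DESeq2 alternatives. The call was lost without WT replicate 1 (adjusted p 0.0016), without WT replicate 2 (0.00135), without M1BP RNAi replicate 2 (0.0331) and without M1BP RNAi replicate 3 (0.00574). RpL24-like had 3069, 3145 and 3466 against 3820 and 3756 (0.23, DESeq2 adjusted p 0.0645). RpL7-like had 1896, 1792 and 1848 against 2314 and 2188 (0.29, DESeq2 adjusted p 0.00682). In these 3 genes the M1BP RNAi libraries lay above all WT libraries, an order found in 27.1% of all genes tested, while their main copies RpLP0, RpL24 and RpL7 had -0.36, -0.37 and -0.37. Of the 1793 exon bases of RpL7-like, 1771 are shared with CG34164, so its value is uncertain. RpS15Ab, a copy of RpS15Aa on another chromosome, had 1887, 1768 and 2251 against 2272 and 2248 and did not pass (0.20, DESeq2 adjusted p 0.351), whereas RpS15Aa fell.

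The other 8 low-count paralogues were nearly silent in WT muscle. RpL10Aa had raw counts of 0, 0 and 2 in WT and 207 and 6 in M1BP RNAi. RpS28-like had 1, 0 and 0 against 33 and 0, RpL22-like 1, 2 and 2 against 34 and 4, RpS19b 0, 1 and 2 against 23 and 1, and RpS10a 0, 2 and 5 against 17 and 2. In these 5 genes most reads came from M1BP RNAi replicate 2. RpL37b and RpS28a had 0 counts in all 3 WT libraries and in M1BP RNAi replicate 3, and 3 and 4 counts in replicate 2. A count of 0 allows up to 3 counts in a library, so they were not detectable elsewhere at this depth. RpS5b had 7, 7 and 13 counts against 46 and 36, and was the only one of the 8 in which both M1BP RNAi libraries were about equally above WT, without passing the test (DESeq2 adjusted p 0.0404). RpL10Aa was not called either (adjusted p 0.00611), but it was when M1BP RNAi replicate 3 was left out (adjusted p 1.93e-05), that is on the 207 counts of replicate 2.

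In flies RpL22-like is enriched in testis, and RpS5b and RpS19b are germline copies. Except for RpS5b, the paralogues with a mean under 100 counts were highest in M1BP RNAi replicate 2, the library with the most testis marker RNA. The 8 summed to 9.96, 14.3 and 25.5 normalised counts in WT against 268 and 48.1 in M1BP RNAi. Of the 12 low-count paralogues, 11 were highest in M1BP RNAi replicate 2. RpLP0-like, RpL24-like, RpL7-like and RpS15Ab were nearly as high in replicate 3, and RpS5b was slightly higher there. The 20 testis markers summed to 8284 to 10126 normalised counts in WT against 13422 and 7913 in M1BP RNAi, most of it from bol. Without bol the sums were 104 to 177 in WT and 6203 and 278 in M1BP RNAi. The numbers of the 20 detected were 15, 10 and 15 in WT and 20 and 15 in M1BP RNAi, and sa, nht, comr and aly were at 0 in all WT libraries. The male-specific RNA lncRNA:roX1 had 14.4, 4994 and 1062 normalised counts in WT against 9618 and 5900 in M1BP RNAi. The part of testis RNA and of the sex of the pupae in the paralogue values was not tested. With roX1 as a covariate, 9 main copies were called lower and the call of RpLP0-like was lost.

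**Figure D4:**
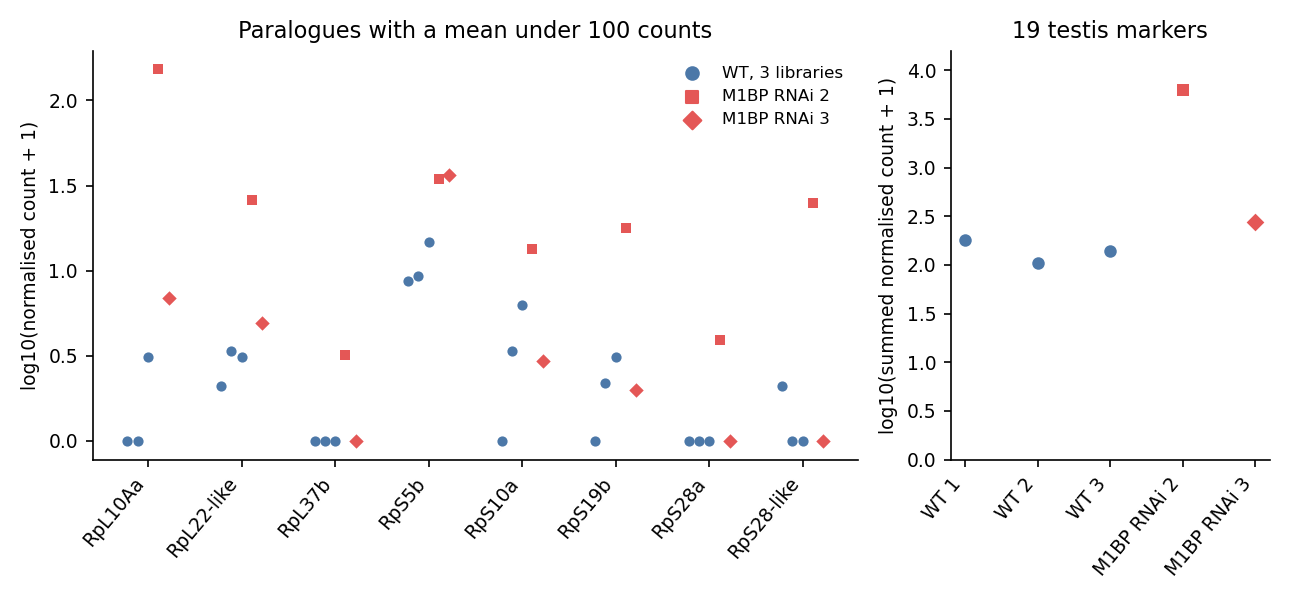
Left, log10 of the normalised count plus 1 of the 8 paralogues with a mean under 100 counts in each library, and right, log10 of the summed normalised count plus 1 of 19 testis markers (bol left out). M1BP RNAi replicate 2 (squares) is highest in 7 of the 8 paralogues and in the marker sum of 6203, against 104 to 177 in WT (circles), and RpS5b is the gene in which M1BP RNAi replicate 3 (diamonds) is as high.

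Other translation genes were set beside the members. Rack1, a small subunit scaffold protein with a symbol of its own, fell as far as RpL22, from 81364, 79641 and 93370 normalised counts in WT to 40011 and 40945 in M1BP RNAi (log2 fold change -1.07, SE 0.106, DESeq2 adjusted p 9.57e-22). sta, the small subunit protein SA, had -0.42 and did not pass. Of 8 elongation factor and related mRNAs grouped with ribosomal protein mRNAs for their terminal oligopyrimidine tract, 0 were called by DESeq2 or edgeR, while 7 had an unadjusted DESeq2 p under 0.05 (35.7% of all genes). All 8 were below 0 (6 with library totals), with a median of -0.35, close to that of the main copies. In 7 of them both M1BP RNAi libraries lay below all WT libraries, against 21.9% of all genes tested.

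Genes that assemble ribosomes stood the other way. Of 31 assembly genes 17 were called higher, against 3.78% of all genes tested. Of the 31, 28 were above 0, with a median of 0.60 against 0.02 over all genes. In 28 of 31 both M1BP RNAi libraries lay above all WT libraries, against 27.1% of all genes tested. The list was written with some of its members known from the study to be higher on these samples, so its count is not independent evidence of its direction. eIF6, which keeps the subunits apart until the large subunit is mature, had 1109, 1026 and 1027 normalised counts in WT against 2744 and 2952 in M1BP RNAi (1.43, SE 0.102, DESeq2 adjusted p 4.31e-42). The nucleolar protein wcd rose by 1.08, the kinase RIOK1 by 1.01, the rRNA methyltransferase Fib by 0.84 and the RNA polymerase I subunits RpI135 and RpI1 by 0.84 and 0.73 (log2, all called). l(2)k09022 (-0.52), Tif-IA (-0.42) and Non1 (-0.05) were below 0 and were not called. Over all genes, 426 were called higher, which became 235 without WT replicate 2, 115 with roX1 as a covariate and 4 in edgeR. The count of 17 became 4 without M1BP RNAi replicate 2, 11 without WT replicate 2, 1 with roX1 as a covariate and 0 in edgeR.

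**Figure D5:**
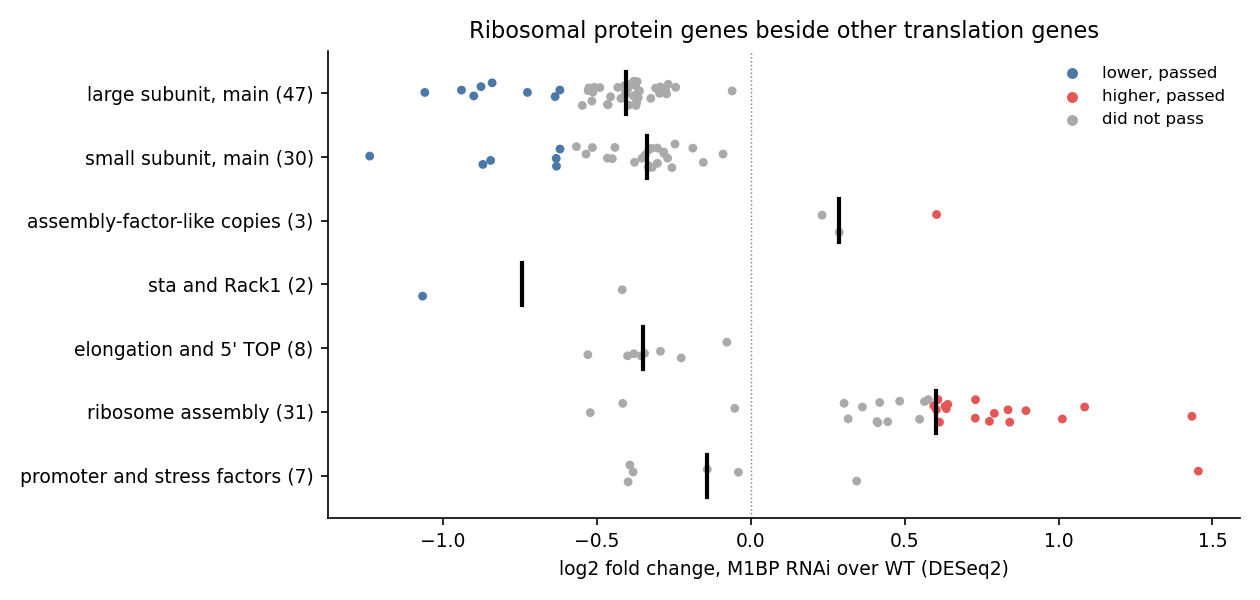
Log2 fold change of M1BP RNAi over WT (x axis) for each gene of 7 groups (y axis, number of genes in brackets), with genes called lower in blue, called higher in red and not called in grey, and the median as a black bar. Both subunits have their whole range below 0 (69 of 77 genes with library totals), elongation genes share their median near -0.35, and ribosome assembly genes centre on 0.60.

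Of 7 promoter and stress factors tied to these genes, only Xrp1 was called higher, as were 3.78% of all genes tested. Xrp1, a transcription factor induced in cells with a ribosomal protein mutation, had 20877, 16746 and 20723 normalised counts in WT against 50821 and 55767 in M1BP RNAi (1.45, SE 0.141, DESeq2 adjusted p 8.45e-23). Its partner Irbp18 had 0.34 and did not pass. Trf2 (-0.14), Dref (-0.40), Myc (-0.38), gfzf (-0.39) and larp (-0.04) did not pass either.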

How the data were processed

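Deposited by the authors were exon counts for each gene (dm6 build), made per the file headers from uniquely aligned reads, and other columns with gene position and merged exon length. Per the submitters' processing notes the tools were bcl2fastq 2.17.1.14, Subread 2.0.3, featureCounts and DESeq2 1.3.0; the aligner, annotation release and strand setting are not given in the sources used here. A second deposited table holds the authors' own comparison (mean count, fold change, p-values), of which only the gene symbols were used. No count column was left unmapped (0).

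Counts of 17494 genes were fitted in R 4.3.3 with DESeq2 1.42.0 (Wald test, default settings, 5 libraries, no covariate), adjusted over 11282 genes by Benjamini-Hochberg. Normalised counts were obtained by dividing by the size factor. TPM uses the merged exon length. Ratios per library add a pseudocount of 0.5. Families are members that differ by a suffix a, b or -like. edgeR 4.0.16 (quasi-likelihood, TMM, filterByExpr), other size factors, a filter of 10 counts in 2 libraries, a roX1 covariate, the replicate number as a block and left-out libraries were alternatives. Libraries of 1 group differed in their counts (chi-square divided by its degrees of freedom, 91.8 to 128), so none was counted as a repeat. Named genes were M1BP, called members, the 5 highest per length, paralogue families, extremes of each subunit and called genes of the lists; all others were chosen after their values were seen. Members and lists were chosen with earlier results of these data known. A planned search of promoter sequences for motifs was not run, and no sequence is shown.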

Additional observations from a re-analysis of the deposited data

How the results depend on the processing

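Main copies stood at a median below 0 in both subunits in every alternative run. The 14 lower calls were the same genes with TMM size factors, size factors without the members, a low-count filter, either DESeq2 filter off, mitochondrial genome genes left out or an adjusted p of 0.05. They became 0 in edgeR, 9 with roX1 as a covariate, 6 with library totals, 8 with totals without mitochondrial genome genes (both chosen after seeing the data), 24 with no fold minimum and 4 to 17 when a library was left out in turn. The 1 higher call became 0 in edgeR, with roX1 and with the replicate block, 3 at an adjusted p of 0.05, and 0 to 1 when a library was left out (without M1BP RNAi replicate 3 the call was RpL10Aa, not RpLP0-like). The 17 higher assembly calls became 0 in edgeR, 1 with roX1, 1 with the replicate block, 26 with library totals and 4 to 16 when a library was left out. With library totals, with and without mitochondrial genome genes, the large subunit median was -0.14 and -0.25 and the small subunit median -0.0681 and -0.18; leaving out a library gave -0.45 to -0.32 and -0.41 to -0.26. When 1 M1BP RNAi library was left out, the other was assumed to vary like WT. Calls over all genes changed with the setting too. From 336 lower and 426 higher they became 4 and 4 in edgeR, 168 and 115 with roX1 and 196 and 119 with the replicate block. With library totals they were 182 and 948, and with totals without mitochondrial genome genes 227 and 655.

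Deviations from the group means correlated at -0.30 between the libraries numbered 2 and at -0.08 between those numbered 3. The deviations of the 2 M1BP RNAi libraries are mirror images of each other. These values therefore cannot decide whether the replicate numbers pair the libraries. With the replicate block 15 members were called lower, the 14 and RpS28b, while M1BP was not called (adjusted p 0.443).

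Among the genes named by the rule, reversed signs were found only in genes that were not called. With library totals RpLP2 was 0.0257, RpL34a 0.0915, RpS14a 0.0114, RpL38 0.21 and RpS29 0.18 (RpS13, RpS30, RpS21 and RpS24, outside that rule, were also above 0), and with totals without mitochondrial genome genes RpL38 was 0.0931 and RpS29 0.0639. RpS10a was -0.77 with roX1. Leaving out a library in turn gave -0.16 to 3.93 for RpS19b, -0.38 to 2.61 for RpS10a, -1.14 to 5.92 for RpS28-like, -0.23 to 0.11 for RpL38 and -0.16 to 0.0016 for RpS29. The lowest value of the first 3 was that without M1BP RNAi replicate 2, which held most of their counts, and the cause of the other reversals was not tested.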
